A study of Mus musculus with 8 samples.

Results

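A set of 10 endoplasmic reticulum (ER) genes were followed in P7 mouse dental pulp: the folding chaperones *Hspa5*, *Hsp90b1*, *Calr* and *Canx*, the protein disulfide isomerases *Pdia3*, *Pdia4* and *Pdia6*, and the stress-response genes *Xbp1*, *Dnajb9* and *Creb3l1*. The rule was a list of symbols and uses no measured value, although earlier results of these data were known when it was drawn up, and all 10 were found among the 12148 genes of the table. The RNA-Seq data were 8 libraries of dental pulp from first molars (M1s) of C57BL/6J mice at postnatal day 7, 4 of Osterix-Cre controls and 4 of the *Tgfbr2cko* genotype, in which the same Osterix-Cre deletes floxed *Tgfbr2* (Osterix-Cre;Tgfbr2f/f). Both groups therefore carry the Cre, which the *Osterix* (*Sp7*) promoter drives in odontoblasts and pulp mesenchyme, while cells of other lineages keep the receptor. Left and right M1s were combined, and the pulp was separated from the mineralized tissue and the enamel organ before the RNA was amplified from a low input. Libraries are named by group and by the number in their label, Osterix-Cre 49 to 52 and *Tgfbr2cko* 53 to 56. Their titles also hold a number whose meaning is not stated and which recurs, 4 in Osterix-Cre 49 and 50, 3 in *Tgfbr2cko* 53 and 56, and 2 in Osterix-Cre 51 and *Tgfbr2cko* 54 and 55.

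Proteins that are secreted or placed in membranes enter the ER unfolded, where Hsp70 and Hsp90 family chaperones, the lectin chaperones calreticulin and calnexin, and disulfide isomerases fold them. When unfolded proteins accumulate, the sensors IRE1, PERK and ATF6 start the unfolded protein response, which slows translation and raises transcription of the chaperones through the factors ATF6 and XBP1. Odontoblasts secrete large amounts of type I collagen for dentin, and procollagen is folded with the help of these proteins before export.

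The deposited values were log2 CPM, read counts scaled to the library total, with 8682872 to 13539670 reads counted per library, so that 1 read was 0.0739 to 0.115 CPM. A gene was called altered, by the study's rule, when limma's p was under 0.05 and the difference was at least 1.5-fold, and p-values adjusted by Benjamini-Hochberg over all genes are given beside it. The labels do not say that the libraries came from separate animals, so p-values measure the spread between libraries; n = 4 and the permutation test count each library as separate, and averaging those that share a title number would leave 3 control and 2 mutant values. *Tgfbr2*, the targeted gene, was at 7.16, 7.62, 7.64 and 7.52 log2 CPM in control pulp and at 7.02, 7.00, 7.16 and 7.61 in mutant pulp. The libraries labelled *Tgfbr2cko* 55 and *Tgfbr2cko* 56 were within the control range, 55 at its lower end, and the groups differed by −0.29 (SE 0.17, limma p = 0.119, adjusted p = 0.79, exact permutation p = 0.143). Reads over the whole gene include exons outside the floxed part and cells without Cre, so this is no full check of the labels. All 7 odontoblast markers listed (*Dspp*, *Dmp1*, *Phex*, *Nes*, *Bglap*, *Col1a1*, *Col1a2*) and all 6 markers of pulp mesenchyme were measured. Enamel epithelium genes were measured too: *Amelx*, *Ambn* and *Enam* took 0.334% to 2.21% of the reads in control pulp, 0.356% to 2.87% in *Tgfbr2cko* 53 to 55 and 19.2% in the library labelled *Tgfbr2cko* 56.

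Several of these genes carry in their promoters the ER stress element, a CCAAT box and a CCACG spaced by 9 bases, through which ATF6 and the general factor NF-Y are known to act. RefSeq promoter windows (GRCm38.p6, 250 bases before to 50 after the start) were given for 9 of the 10 genes, all but *Creb3l1*. The element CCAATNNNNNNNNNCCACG, searched on both strands, was in 5 of these 9 windows and in 39 of all 32851 windows (0.119%). The elements are shown, read on the strand that carries them, because they are what the chaperone promoters share; capitals mark the CCAAT and CCACG letters.
Hspa5: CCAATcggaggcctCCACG
Hsp90b1, distal: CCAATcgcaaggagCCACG
Hsp90b1, proximal: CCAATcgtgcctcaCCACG
Calr: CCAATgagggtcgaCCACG
Canx: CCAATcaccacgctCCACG
Pdia6: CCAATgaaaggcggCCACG

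Distances are from the RefSeq start. The *Hspa5* element lies at chr2:34772025-34772043, on the strand of the gene, from 65 to 47 bases before the start. The *Hsp90b1* elements lie at chr10:86705638-86705656, on the strand of the gene, and chr10:86705533-86705551, on the opposite strand, 212 to 194 and 107 to 89 bases before the start. Those of *Canx* (chr11:50325800-50325818) and *Pdia6* (chr12:17266491-17266509) are on the gene's strand, from 145 and 98 bases before the start, and that of *Calr* (chr8:84847075-84847093) is on the opposite strand, from 162 bases before it. With the last base left free, *Pdia3* (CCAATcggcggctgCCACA, chr2:121413873-121413891) and *Pdia4* (CCAATcacgggctgCCACT, chr6:47813602-47813620) also matched, for 7 of 9 windows against 0.365% of all. The search fixes the 9-base spacing, and the 9 bases between differ in every sequence printed. *Xbp1* and *Dnajb9* held neither form, and neither the second ER stress element, ATTGG and CCACG 1 base apart (in 0.0365% of all windows), nor the core TGACGTGG of the XBP1 site (0.676%) was in any of the 9 windows. GENCODE M21, used for the gene positions here, starts *Hspa5* 120 and *Pdia3* 127 bases further upstream than RefSeq, so that these elements lie inside the GENCODE gene spans. It starts *Dnajb9* 258 bases further upstream, so that the whole window of *Dnajb9* lies inside its GENCODE span. For *Dnajb9*, bases before the GENCODE start were not searched. A match describes the letters of the reference genome, not binding of a factor in these mice.

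The bases before the start of *Hsp90b1* in both RefSeq and GENCODE (chr10:86705510-86705694, − strand) are given as the context of its paired elements, with the element letters in capitals.
Hsp90b1: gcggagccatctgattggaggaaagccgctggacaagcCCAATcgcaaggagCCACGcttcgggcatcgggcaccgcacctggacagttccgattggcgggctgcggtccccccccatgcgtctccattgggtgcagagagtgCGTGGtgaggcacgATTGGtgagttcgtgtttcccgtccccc

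**Figure D1:**
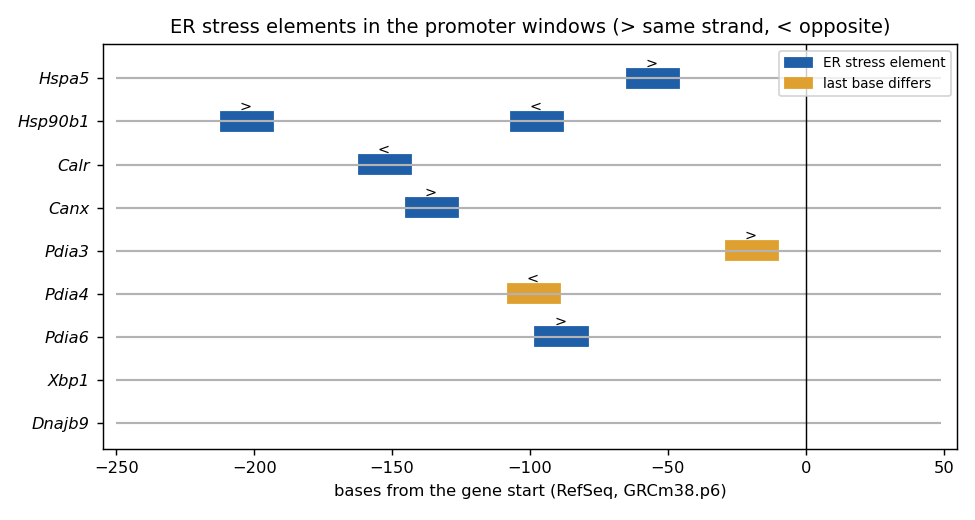
ER stress elements in the promoter windows of the 9 genes with a RefSeq window, drawn to scale in bases from the gene start; arrowheads give the strand relative to the gene. Blue blocks are full matches in 5 genes, *Hsp90b1* holding a pair, and yellow blocks are matches with another last base in *Pdia3* and *Pdia4*.

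The genes were among the more abundant transcripts of control pulp. Per kilobase of exon, the control means ran from 330.5 ± 61.4 CPM (SD, n = 4) for *Pdia3*, which ranked 106 of the 12144 genes with a length, to 16.2 ± 0.764 for *Dnajb9*, which ranked 3182. In between, *Hspa5* was at 229 ± 54.2 CPM per kilobase, *Calr* at 202 ± 70.3, *Pdia6* at 165 ± 36.5, *Pdia4* at 163 ± 25.0, *Xbp1* at 136.5 ± 16.3, *Hsp90b1* at 105 ± 18.7, *Canx* at 86.8 ± 12.5 and *Creb3l1* at 62.9 ± 6.23. From *Pdia3* down to *Canx* the control ranges of neighbours overlapped, and their order within single libraries was not compared. Genes further apart could be separate, as the lowest control value of *Pdia3*, 264, lay above the highest of *Pdia6*, 197. The control ranges of *Canx*, *Creb3l1* and *Dnajb9*, in that order, did not overlap.

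None of the 10 genes was altered in *Tgfbr2cko* pulp, where 5.77% of all genes were. Of them, 9 had a higher mean in mutant pulp by 0.01 to 0.29 on the log2 scale, none with p under 0.05, and *Creb3l1* was lower, at −0.45, with an exact permutation p of 0.0286 and a limma p of 0.0284. That 1 of 10 genes compares with 8.38% of all genes at p under 0.05 in either direction and 5.08% in the lower direction. No member passed an adjusted p of 0.05, against 0.947% of all genes. The median difference over the 10 was 0.12, against −0.01 over all genes, of which 48.8% had a higher mean in mutant pulp. The groups did not overlap for 1 member, *Creb3l1*, where they did not overlap for 5.27% of all genes.

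**Figure D2:**
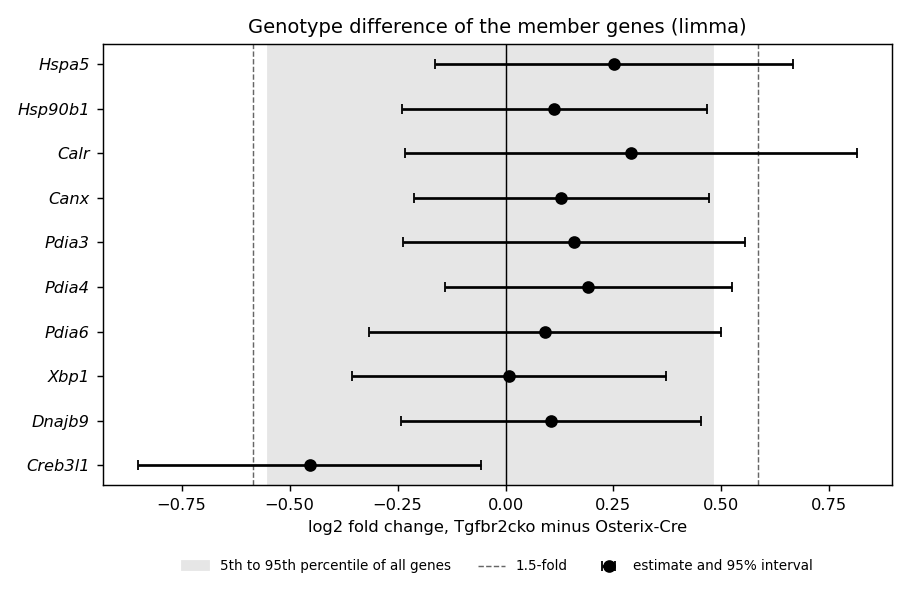
Difference of the 10 genes between genotypes (x axis, log2 fold change, *Tgfbr2cko* minus Osterix-Cre), as points with 95% intervals from limma; grey spans the 5th to 95th percentile of all genes (−0.55 to 0.48) and dashed lines mark 1.5-fold. Of the estimates, 9 lie between 0.01 and 0.29 with intervals that include 0, and *Creb3l1* lies at −0.45 with an interval below 0.

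*Hspa5* (chr2:34771970-34777547 in GENCODE M21, GRCm38) encodes BiP, the Hsp70 chaperone of the ER lumen that also holds the stress sensors inactive. Its level was 9.79, 9.87, 10.34 and 9.56 log2 CPM in control pulp and 10.06, 10.16, 10.20 and 10.14 in mutant pulp. The mutants sat close together and above 3 of the 4 controls, and Osterix-Cre 51 was above them all. The difference was 0.25 (SE 0.19, 95% interval −0.16 to 0.66, limma p = 0.214, exact permutation p = 0.171), and the SD was 0.32 in control pulp and 0.06 in mutant pulp. Without Osterix-Cre 51 the difference was 0.40 and without Osterix-Cre 52 it was 0.14. With 7741 to 15313 reads per library, counting error was small beside this spread.

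*Hsp90b1* (chr10:86690209-86705509) encodes GRP94, the Hsp90 of the ER lumen, which folds integrins and other secretory proteins. Its log2 CPM ran from 8.47 to 9.02 in control pulp and from 8.64 to 8.93 in mutant pulp, a range inside that of the controls, and differed by 0.11 (SE 0.16, 95% interval −0.24 to 0.47). Leaving out a library gave 0.03 (without Osterix-Cre 52) to 0.22 (without Osterix-Cre 51). In GENCODE M21, 10.3% of its exon bases overlap exons of the pseudogene *1810014B01Rik* on the opposite strand, whose reads an unstranded kit cannot tell apart.

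The lectin chaperones hold glycoproteins, procollagen among them, until their sugars show that folding is complete. *Calr* (chr8:84841850-84846934) encodes the soluble calreticulin and was at 8.83, 8.82, 9.78 and 9.08 in control pulp and at 8.87, 9.64, 9.58 and 9.58 in mutant pulp. In each group a library was away from the rest, Osterix-Cre 51 above its group and *Tgfbr2cko* 53 below its own, and the groups overlapped. The difference was 0.29 (SE 0.24, 95% interval −0.23 to 0.81, limma p = 0.252, exact permutation p = 0.429). Without Osterix-Cre 51 it was 0.51 and passed p under 0.05, short of 1.5-fold, and it was 0.19 without either Osterix-Cre 49 or 50. *Canx* (chr11:50293961-50325673), encoding the membrane-bound calnexin, ran from 8.39 to 8.91 in control pulp and from 8.66 to 8.99 in mutant pulp, a difference of 0.13 (SE 0.16, 95% interval −0.21 to 0.47). It was 0.04 without Osterix-Cre 52, 0.06 without *Tgfbr2cko* 53 and 0.21 without Osterix-Cre 50.

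The disulfide isomerases form and rearrange disulfide bonds. *Pdia3* (chr2:121413775-121438687) encodes ERp57, which works on glycoproteins held by calreticulin and calnexin, and was at 9.69, 9.95, 10.34 and 10.02 in control pulp and at 10.03, 10.24, 10.19 and 10.18 in mutant pulp. As with *Hspa5*, the mutants lay within the control range, Osterix-Cre 51 being highest of the 8. The difference was 0.16 (SE 0.18, 95% interval −0.24 to 0.56), 0.06 without Osterix-Cre 49 and 0.27 without Osterix-Cre 51. *Pdia4* (chr6:47796141-47813430), encoding ERp72, ran from 8.41 to 8.89 in control pulp and from 8.65 to 8.92 in mutant pulp and differed by 0.19 (SE 0.15, 95% interval −0.14 to 0.52), or 0.29 without Osterix-Cre 51. *Pdia6* (chr12:17266545-17284770) encodes the isomerase P5, which also acts on the sensor IRE1. It ran from 8.79 to 9.53 in control pulp and from 9.18 to 9.52 in mutant pulp, with a difference of 0.09 (SE 0.19, 95% interval −0.32 to 0.50) that was −0.06 without Osterix-Cre 52 and 0.19 without Osterix-Cre 51. The upper ends of the 95% intervals passed 1.5-fold for *Hspa5* and *Calr* and stayed under it for the other 5 chaperones and isomerases.

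**Figure D3:**
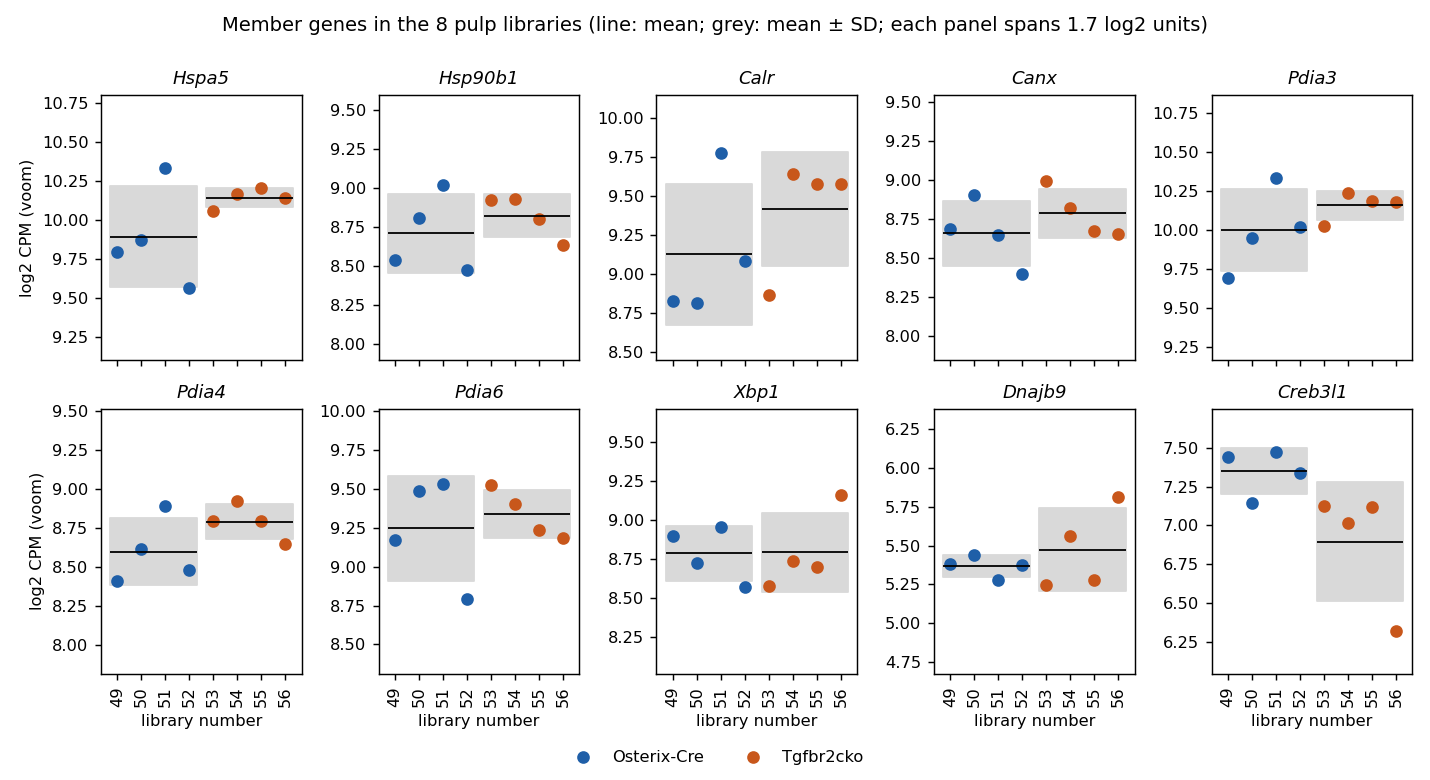
Log2 CPM of each of the 10 genes (y axes, each spanning 1.7 log2 units) in the 8 libraries (x axes, library number), blue for Osterix-Cre and orange for *Tgfbr2cko*, with the group mean as a line and mean ± SD in grey. The mutant points lie within or across the control range for 9 genes; all 4 lie under the controls for *Creb3l1*, where library 56 is lowest at 6.33.

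The controls spread more than the mutants for all 7 chaperones and isomerases, as they did for 40.9% of all genes, while the mutants spread more for *Xbp1*, *Dnajb9* and *Creb3l1*. Among the controls, Osterix-Cre 51 was the highest for 8 of the 10 genes, where it was the highest for 24.9% of all genes, and Osterix-Cre 52 was the lowest for 5, where it was the lowest for 40.0% of all genes. Centred on each gene's own mean, the 10 genes averaged −0.13, −0.04, 0.21 and −0.21 in control pulp and −0.0048, 0.13, 0.04 and 0.01 in mutant pulp. The widest gap in the set thus lay between 2 control libraries. These are counts over genes of the same libraries, with no test.

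**Figure D4:**
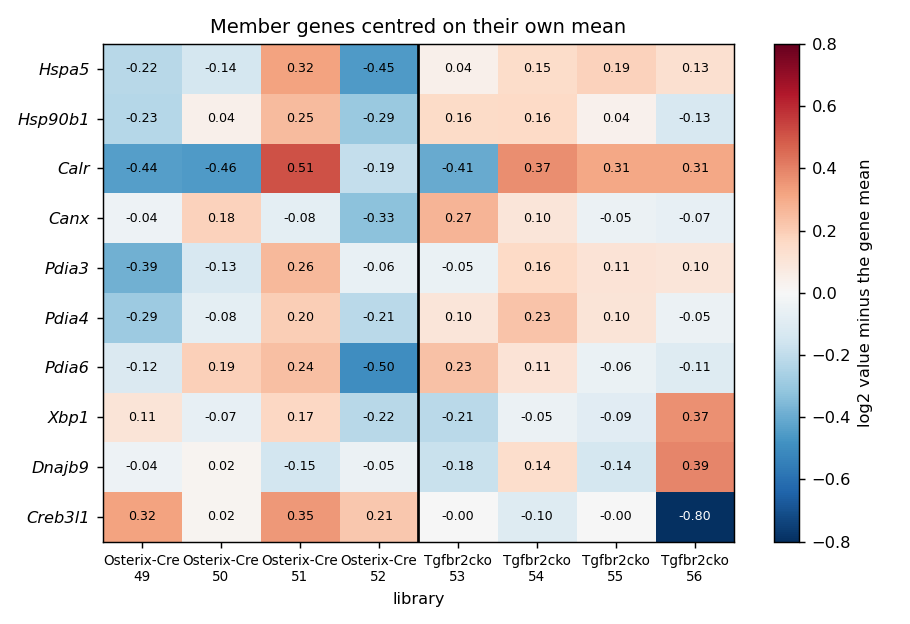
The 10 genes (rows) in the 8 libraries (columns, Osterix-Cre left of the line), coloured and printed as log2 value minus the gene's mean over all 8. Osterix-Cre 51 is above the mean for 8 genes and Osterix-Cre 52 for 1, and in library 56 *Creb3l1* is at −0.80 while *Xbp1* and *Dnajb9* are at 0.37 and 0.39.

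*Xbp1* (chr11:5520659-5525893) encodes the transcription factor that IRE1 activates by unconventional splicing of its mRNA, which gene counts cannot separate from the unspliced form. It was at 8.89, 8.72, 8.96 and 8.57 in control pulp and at 8.58, 8.74, 8.70 and 9.16 in mutant pulp, a difference of 0.01 (SE 0.17, 95% interval −0.36 to 0.37). In mutant pulp 3 libraries lay within the control range and the library labelled *Tgfbr2cko* 56 lay above it. *Dnajb9* (chr12:44205559-44210326) encodes ERdj4, a BiP co-chaperone that is a known target of XBP1, and was at 5.38, 5.44, 5.28 and 5.38 in control pulp and at 5.24, 5.56, 5.28 and 5.81 in mutant pulp. Its controls lay close together (SD 0.07), with mutants below, within and above them, and the difference was 0.11 (SE 0.16, 95% interval −0.24 to 0.45). Both genes were highest in the library labelled *Tgfbr2cko* 56, and without it their differences were −0.11 and −0.01, against 0.08 and 0.18 without *Tgfbr2cko* 53.

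*Creb3l1* (chr2:91982328-92024502) encodes OASIS, a membrane-bound factor of the CREB3 family that is released by cleavage and is known to drive *Col1a1* transcription in osteoblasts. It was at 7.44, 7.14, 7.47 and 7.34 in control pulp and at 7.12, 7.02, 7.12 and 6.33 in mutant pulp, from 1085 to 1705 reads per library. All 4 mutants were below all 4 controls, Osterix-Cre 50 lying just above the 3 nearest mutants, and the library labelled *Tgfbr2cko* 56 was far below the rest. In library 56, 22.6% of all genes were above their own mean, and *Amelx*, *Ambn* and *Enam* took 19.2% of the reads to which the values are scaled. The difference was −0.45 (SE 0.18, 95% interval −0.85 to −0.06), or 1.37-fold lower, with limma p = 0.0284, adjusted p = 0.454 and an exact permutation p of 0.0286, the smallest that 4 against 4 can give. It was −0.26 without library 56, −0.42 without Osterix-Cre 49 and −0.41 without Osterix-Cre 51. With the mean log2 CPM of *Amelx*, *Ambn* and *Enam* as a covariate it was −0.33. In none of these 4 fits did it pass p under 0.05. It passed in the other 5 of 8 fits without a library.

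Markers of several cell types of the tissue also differed between these libraries. Of the 7 odontoblast markers, 3 were altered and lower (*Nes*, *Bglap* and *Col1a2*), where 3.65% of all genes were altered and lower. The differences of *Dspp* (−0.71), *Col1a1* (−0.86) and *Dmp1* (−0.44) did not pass p under 0.05, nor did that of *Phex*, which had a higher mean in mutant pulp (0.14). The 7 summed to 62309 to 136740 CPM in control pulp and to 37240 to 75961 in mutant pulp, a sum carried mostly by *Col1a1* and *Col1a2*, and none of them was at 0. In bulk pulp, fewer cells of a type and less RNA per cell cannot be told apart.

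All 5 endothelial markers had a lower mean in mutant pulp (211 to 291 CPM summed in control pulp, 174 to 227 in mutant pulp), with *Tek* altered. The same held for all 5 macrophage markers (598 to 875 CPM and 372 to 768), with *Cd68* altered, and for 3 of 4 measured markers of pericytes and smooth muscle (268 to 338 CPM and 209 to 244), with *Rgs5* altered (−0.83, limma adjusted p = 0.0212). The macrophage sum of 372 CPM was in library 56, and *Tgfbr2cko* 53 to 55, at 599 to 768, lay within the control range. Over all genes, 3.65% were altered and lower, and 48.8% had a higher mean in mutant pulp. The pulp mesenchyme markers had 0 of 6 altered and summed to 7577 to 9623 CPM in control pulp and 6703 to 9676 in mutant pulp. The enamel epithelium markers did not go one way. *Amelx*, *Ambn* and *Enam* had higher means in mutant pulp and carried the sum of the 7, which was 3965 to 23283 CPM in control pulp and 4120 to 193230 in mutant pulp, the highest in library 56, where *Creb3l1* was lowest. Their differences of 1.39, 1.46 and 1.63 were 0.20, 0.32 and 0.45 without library 56, and none passed p under 0.05 in either fit. *Mmp20*, *Amtn*, *Odam* and *Klk4* had lower means, and *Klk4*, a protease of maturing enamel, was altered, 6.54-fold lower with no overlap (−2.71, limma adjusted p = 0.000136). In library 56, where *Amelx*, *Ambn* and *Enam* were highest, *Klk4* was at 5.39 log2 CPM, against 7.26 to 7.78 in control pulp. Which cells carried *Klk4* was not tested. The part of any of these cell types in the *Creb3l1* difference was not tested beyond the enamel covariate.

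Chaperone transcripts were set beside those of type I collagen, a main client of the ER in these cells. The 7 chaperones and isomerases took 0.387%, 0.441%, 0.560% and 0.383% of the reads in control pulp and 0.475%, 0.526%, 0.502% and 0.484% in mutant pulp. *Col1a1* and *Col1a2* together took 7.96%, 5.36%, 8.30% and 11.5% in control pulp and 3.46%, 4.31%, 6.27% and 3.12% in mutant pulp. Type I collagen reads per chaperone read were thus 20.6, 12.1, 14.8 and 29.9 in control pulp and 7.27, 8.19, 12.5 and 6.45 in mutant pulp, with means of 19.4 ± 7.86 and 8.61 ± 2.70 (SD, n = 4). The groups overlapped only where *Tgfbr2cko* 55, at 12.5, passed Osterix-Cre 50, at 12.1, and no p is given for this ratio over chosen genes.

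Around these genes, 97 of 100 further genes of the secretory pathway, in 9 lists, were measured. *Derl3*, *Selenos* and *Ufd1* were not in the table. Of the 97, 3 were altered, 2 higher and 1 lower, and 7 had p under 0.05, shares of which the background over all genes is 5.77% and 8.38%. Their median difference was 0.05.

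None of the 11 co-chaperones and exchange factors of BiP was altered. *Hyou1*, the ER Hsp110 that exchanges nucleotide on BiP, was 5.30 in Osterix-Cre 49 and 6.22 to 6.25 in the other 3 controls, against 5.14 to 5.96 in mutant pulp, a difference of −0.37 (SE 0.24, adjusted p = 0.823). Without Osterix-Cre 49 it was −0.61 and met the rule for altered, and it passed p under 0.05 at −0.45 both with library weights and with libraries of a shared title number averaged. Without *Tgfbr2cko* 53 it was −0.21. *Sil1*, another exchange factor, differed by 0.24 (SE 0.16, adjusted p = 0.841), and it passed p under 0.05 at 0.35 without library 56, at 0.35 with the enamel covariate and at 0.31 with the enamel genes out of the total, and was 0.14 without *Tgfbr2cko* 54. Of 14 other disulfide isomerases and oxidases none was altered. *Tmx2*, a membrane thioredoxin, had p under 0.05, from 6.33 to 6.48 in control pulp and from 6.64 to 6.80 in mutant pulp (0.32, SE 0.13, limma p = 0.0236, adjusted p = 0.419, exact permutation p = 0.0286), and 10.8% of its exon bases overlap *Gm28635* on the same strand. This call was lost in 5 other fits, with differences of 0.29 to 0.31. Its relative *Tmx4* differed by −0.32 (SE 0.18, adjusted p = 0.737), by −0.20 without library 56, and passed p under 0.05 at −0.42 without Osterix-Cre 50.

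None of 10 genes of the lectin cycle and glycan trimming was altered. The glucosidases that trim the first glucoses, *Mogs* and *Ganab*, had the smallest p of this list, both differing by 0.30 (adjusted p = 0.668 and adjusted p = 0.806), and 2 of the 10 did not overlap between groups, where 5.27% of all genes did not. These were *Mogs*, at 4.43 to 4.64 in control pulp and 4.78 to 4.96 in mutant pulp, and *Edem1*, which directs misfolded glycoproteins to degradation, at 5.42 to 5.61 and 5.62 to 5.78 (0.20, SE 0.13, adjusted p = 0.839). *Mogs* passed p under 0.05 in 5 other fits, at 0.30 to 0.37, and *Ganab* at 0.42 without Osterix-Cre 51, while without Osterix-Cre 49 or 50 *Ganab* differed by 0.19. In ER-associated degradation, which returns misfolded proteins to the proteasome, none of 11 measured genes was altered, with *Herpud1* at −0.26 (adjusted p = 0.872) and *Derl1* at 0.14 (adjusted p = 0.948). *Herpud1* was at 5.95 in library 56 and at 6.48 to 6.83 in the other mutants, and it differed by −0.09 without that library and by −0.38 without *Tgfbr2cko* 55.

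None of the 6 sensors and their proteases was altered. *Ern1*, encoding IRE1, was at 4.19, 3.93, 3.58 and 4.30 in control pulp and at 4.07, 3.76, 4.43 and 5.40 in mutant pulp, so that 2 mutants lay within the control range and *Tgfbr2cko* 55 and the library labelled *Tgfbr2cko* 56 above it (0.42, SE 0.31, adjusted p = 0.878). The difference was 0.09 without library 56, 0.64 without *Tgfbr2cko* 54 and 0.07 with the enamel covariate. *Atf6b* differed by 0.14 (SE 0.16, adjusted p = 0.98), and by 0.03 (without Osterix-Cre 52) to 0.25 (without *Tgfbr2cko* 54) when a library was left out.

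Of 5 effectors of the PERK branch none reached 1.5-fold with p under 0.05. *Ppp1r15a*, encoding GADD34, which brings a phosphatase to eIF2α and restores translation, was at 5.14, 5.32, 5.38 and 5.70 in control pulp and at 4.70, 4.95, 4.91 and 4.76 in mutant pulp. All mutants were below all controls, 1.47-fold lower on average (−0.55, SE 0.16, limma p = 0.00482, adjusted p = 0.183, exact permutation p = 0.0286). Without Osterix-Cre 49 its difference was −0.64, without *Tgfbr2cko* 54 −0.59 and with libraries of a shared title number averaged −0.61, which all passed 1.5-fold. *Trib3*, a pseudokinase induced by ATF4 and CHOP, differed by −0.70 (SE 0.42, adjusted p = 0.793) on 17 to 65 reads per library, and passed p under 0.05 at −0.98 without Osterix-Cre 49 and at −0.81 with shared title numbers averaged, while without library 56 it was −0.33.

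Of the other 4 CREB3 family genes, *Creb3l3* was altered. It encodes CREBH, best known in liver, and its log2 CPM was 2.98, 2.57, 3.55 and 4.03 in control pulp and 2.26, 1.79, 1.497 and 1.02 in mutant pulp, from 24 to 166 reads per library. All mutants were below all controls, 3.12-fold lower on average (−1.64, SE 0.35, limma p = 0.000465, adjusted p = 0.0491, exact permutation p = 0.0286). The adjusted p ran from 0.0125 to 0.164 over 16 other settings and was under 0.05 in 5 of them. All 4 genes of this list had a lower mean in mutant pulp, with a median of −0.17.

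Of 23 genes of translocation, signal peptide cleavage and export, *Spcs3*, a subunit of signal peptidase, was altered. It was at 5.62, 5.75, 6.14 and 5.99 in control pulp and at 6.64, 6.19, 6.66 and 6.56 in mutant pulp, all above the controls and 1.56-fold higher on average (0.64, SE 0.16, limma p = 0.00186, adjusted p = 0.11, exact permutation p = 0.0286). Its difference was 0.55 with library weights, 0.57 after averaging libraries that share a title number and 0.55 without Osterix-Cre 49, all under 1.5-fold. *Sec31a*, a COPII coat subunit that carries procollagen out of the ER, differed by −0.31 (SE 0.14, limma p = 0.0417, adjusted p = 0.556, exact permutation p = 0.0286). Of 13 procollagen folding factors, *Tmem38b*, an ER potassium channel whose loss causes brittle bone, was altered. It was at 2.72, 3.04, 2.41 and 2.81 in control pulp and at 3.49, 3.54, 3.59 and 3.43 in mutant pulp (0.77, SE 0.21, limma p = 0.00317, adjusted p = 0.142, exact permutation p = 0.0286). These values came from 50 to 145 reads per library. Over 17 other settings its limma adjusted p ran from 0.0467 to 0.384 and was under 0.05 in 1. *P4ha1*, a prolyl 4-hydroxylase subunit, was 1.49-fold higher on average (limma p = 0.0142, adjusted p = 0.321, exact permutation p = 0.0857), just under the fold of the rule. Over 17 other fits the difference ran from 0.45, without Osterix-Cre 50, where it lost p under 0.05, to 0.73, without library 56, and it met the rule in 8.

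**Figure D5:**
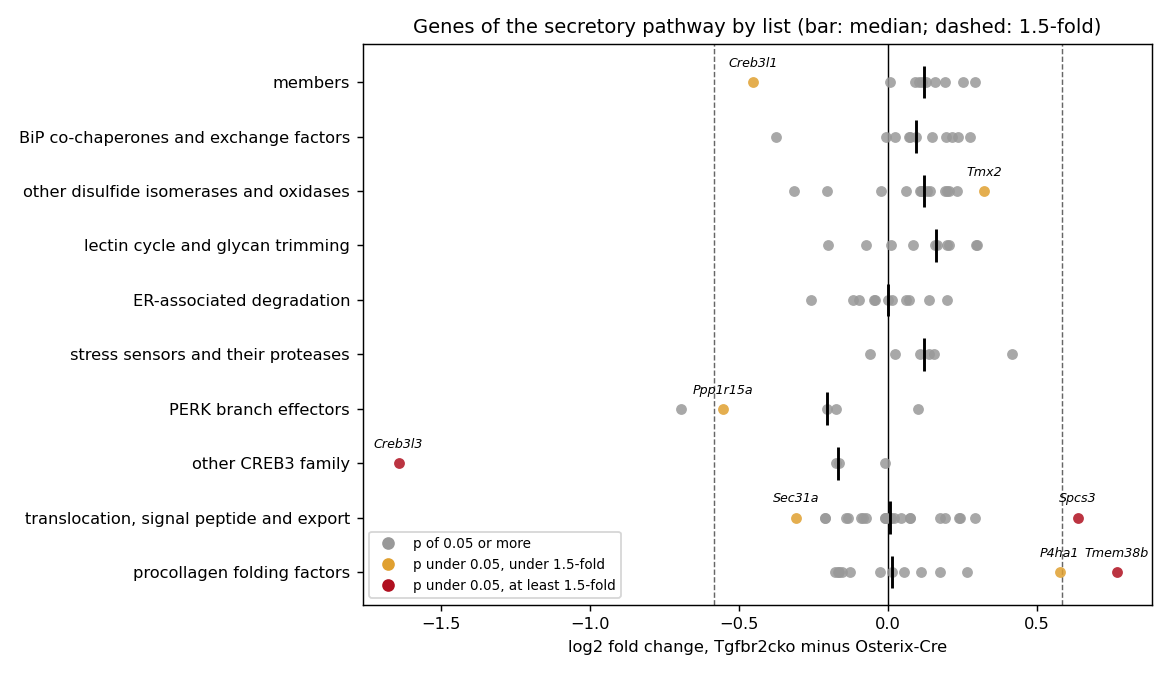
Difference of each gene between genotypes (x axis, log2 fold change, *Tgfbr2cko* minus Osterix-Cre) in the 10 genes and the 9 other lists (rows); black bars are list medians and dashed lines 1.5-fold. Red points, which passed p under 0.05 and 1.5-fold, are *Creb3l3*, *Spcs3* and *Tmem38b*, and yellow points had p under 0.05 with a smaller fold.

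Genes with the ER stress element were compared as a group that no readout chose. Of 9556 measured genes with a promoter window, 16 held the full element (0.167%), 8 of them in the lists here, *Calr*, *Canx*, *Creld2*, *Dnajc3*, *Hsp90b1*, *Hspa5*, *Pdia6* and *Syvn1*. *Creld2* and *Alg12*, which start on either side of it, share a single element. The median difference of the 16 was 0.05. A higher mean in mutant pulp was found for 11 of them, against 48.8% of all genes, but these include the 5 members, whose higher means are given above. Of the 11 genes that are not members, *Acacb*, *Adcy3*, *Alg12*, *Dnajc3* and *Pan2* had lower means and the others higher means. Of the 16, 1 was altered, near the 5.77% of all genes. It was *Acacb*, an acetyl-CoA carboxylase named here because of its value, at −0.59 (SE 0.23, adjusted p = 0.437).

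Among all genes other than the 10, those nearest to the mean centred profile of the 10 over the 8 libraries, by root mean square distance, were *Bcr* (0.0412), *Zfp622* (0.0416), *Pafah1b1* (0.0557), *Gramd1a* (0.0593) and *Dolpp1* (0.0611). Their genotype differences were 0.05, 0.04, 0.13, 0.06 and 0.12, each with an adjusted p of 0.964 or more. The likeness is a description over 8 libraries.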

How the data were processed

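RNA-Seq was performed by the authors on amplified dental pulp RNA (SMART-Seq HT and Nextera XT, which keep no strand). The submitters' processing notes name fastp 0.21.0, HISAT2 2.1.0, featureCounts (Subread 2.0.1), limma and GRCm38.p5, and the methods name GENCODE M14 and the CLEAR filter for low-input libraries. The deposited values are log2 CPM from voom by the authors, log2 of the count plus 0.5 over the library total; all 97184 values gave whole reads, to within 3.61e-08. Gene names matched for 12144 of 12148 genes; positions were from GENCODE M21 and promoters from RefSeq (GRCm38.p6). The 2 genotypes were compared over all genes with limma 3.58.1 in R 4.3.3 (moderated test with an intensity trend, two-sided, no covariate) and by an exact permutation test over 70 arrangements, with Benjamini-Hochberg adjustment; the script was tested on simulated data. No 2 libraries agreed within sampling noise (chi-square per degree of freedom 19.1 to 284 over 28 pairs). Named genes were every member, the altered genes of each other list (up to 4, or the 2 of smallest p), the 5 nearest profiles and *Tgfbr2*; *Sec31a*, *P4ha1*, *Acacb*, *Edem1* and single markers were named after their values were seen. The members and lists were chosen with earlier results of these data known. Alternatives were voom weights, library weights, no trend, other scalings, a filter at mean log2 of 3, an enamel covariate, averaging of libraries that share a title number, other thresholds and leaving out each library. No set test was run. Reads have no molecular identifiers.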

Additional observations from a re-analysis of the deposited data

Results flagged for a closer look

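Of 62 groups of 4 libraries examined, 4 held a library whose gap to its nearest neighbour was above the 95% critical value of Dixon's test on the group's range, which chance gives in about 1 in 20 groups. *Calr* was at 8.867 log2 CPM in *Tgfbr2cko* 53, against 9.58 to 9.641 in the other 3 mutants. *Creb3l1* was at 6.325 in the library labelled *Tgfbr2cko* 56, against 7.018 to 7.122 in the other 3 mutants. *Hyou1* was at 5.301 in Osterix-Cre 49, against 6.224 to 6.253 in the other 3 controls. *Pafah1b1* was at 6.247 in Osterix-Cre 51, against 6.002 to 6.04 in the other 3 controls.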

How the results depend on the processing

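No member was altered under any of 9 alternative fits or 8 fits without a library; at p under 0.05 with any fold the count was 1. The median over the members stayed between 0.07 and 0.20. Of the single-gene results, 487 kept their direction and side of the threshold, 19 passed it, 9 lost it and 10 turned sign, and the cause was not tested. Those that turned were *Xbp1* (−0.10 with the enamel covariate, −0.088 with library weights, −0.11 to 0.080 without a library), *Pdia6* (−0.059 to 0.19 without a library), *Dnajb9* (−0.0065 to 0.18), *Bcr* (−0.0085 with library weights) and *Zfp622* (−0.012 with library weights, −0.0058 to 0.13 without a library). Of all genes, 701 were altered, with 510 after a filter at mean log2 of 3 that left 10313 genes and 947 without *Tgfbr2cko* 53; 256 passed at 2-fold. An adjusted p under 0.05 was reached by 115, by 258 with library weights and by 65 without Osterix-Cre 51. In the other lists the 3 altered genes became 1 at 2-fold, 1 on the adjusted p, 7 at any fold and 3 to 5 without a library, 5 being without Osterix-Cre 49. No paired analysis was run. The groups' title numbers share only the number 2, so that a block would take the genotype difference from the 3 libraries of that number. What the number counts is not stated. With 4 libraries per genotype, the standard errors of the members were 0.15 to 0.24 on the log2 scale, so that differences of that size were not resolved.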
